A study of Homo sapiens with 4 samples.

Results

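The histone mRNAs made during DNA replication end in a conserved stem-loop in place of a poly(A) tail. Their genes are transcribed in a nuclear compartment called the histone locus body. There the new transcript is cut behind the stem-loop by a machinery that shares only some of its parts with the one that cuts all other mRNAs. This pathway is described here by 10 genes, of 29655 gene names in the tables, in UMSCC74B cells. They were selected by name for their role in the pathway, with earlier results of these data known. NPAT and CASP8AP2 organise the histone locus body, and SLBP binds the stem-loop. LSM10 and LSM11 are proteins of the U7 small nuclear ribonucleoprotein (snRNP), and ZNF473 links this particle to the stem-loop complex. CPSF3, CPSF2 and SYMPK form the cleavage complex, and ERI1 trims and degrades the finished mRNA. All 10 names were found once in each table, and all 10 passed the filter on low values.

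RNA-seq was performed on 4 libraries of UMSCC74B, which the labels describe as a head and neck squamous cell carcinoma (HNSCC) line. In the labels, 2 libraries have genotype WT and treatment CONTROL (control shRNA), and 2 have genotype PRMT5 KD and treatment ShRNA. All were collected 72 h after the shRNA, and no agent other than the shRNA is named for either group. The labels speak of plasmid transfection, the methods of lentiviral particles, and neither says that the 2 libraries of a group came from separate cultures. The p-values therefore measure the spread between these libraries, which may be technical. PRMT5 is the main enzyme of symmetric arginine dimethylation, and the design asks which transcripts change when it is silenced.

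The 4 libraries held 52185289 to 65964558 estimated counts, with 71.5% to 81.4% of them on protein-coding genes. The share of rRNA was 14.2% to 15.3% in control and 18.02% to 26.2% under the PRMT5 KD label. The PRMT5 transcript went against the label, with 94.3 and 84.2 CPM in control against 132 and 150 CPM in PRMT5 KD-labelled libraries (log2 fold change 0.66, FDR = 0.00547 from edgeR). The study checked the silencing by immunoblot, a measure of protein that was not analysed here. All directions below follow the labels. The cell type label was checked as well. Of 8 squamous epithelial markers, KRT5, KRT6A and CDH1 had 0 to 9 counts in every library, and only TP63 passed the filter. The 8 summed to 272 to 375 counts in control and 217 to 379 under the PRMT5 KD label, and the members moved in different directions. TP63 had 218 and 330 counts in control against 83 and 144, and was called lower. KRT17 (5 and 6 against 53 and 71), SFN (3 and 5 against 28 and 86) and KRT14 (0 and 0 against 11 and 22) had more counts under the PRMT5 KD label and were too low to be tested. The data thus go against the squamous label, and the cells are called by the name of the line. The fibroblast markers COL1A1, COL1A2, PDGFRB, DCN and LUM were present, at 20840 to 29048 summed counts in control and 4059 to 4448 under the PRMT5 KD label, and all 5 were called lower. Endothelial markers summed to 399 to 702 counts in control and 22 to 48 under the PRMT5 KD label. Among 5 immune markers, CD3E had 0 counts and PTPRC 0 to 5, while CD68 was called higher. The part of these shifts in the results below was not tested. In bulk RNA, fewer cells of a type and less RNA per cell cannot be told apart.

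The sequences on which the pathway acts are given first. SLBP recognises the stem-loop at the end of histone mRNAs, which is shown for the histone gene of each class with the highest mean CPM. Histone genes are near-identical copies, so which copy ranks highest is uncertain. HIST2H2AA3 had 369 CPM on average, and HIST2H2AA4, with the same sequence at this site, had 37.7 CPM. The capitals mark the 16 bases of the stem-loop in GENCODE release 44 transcripts, found by the letters common to its stem and loop, with 5 bases on either side. Here HIST1H1E encodes a linker histone, and the other 4 encode the core histones H2A, H2B, H3 and H4.

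HIST1H1E: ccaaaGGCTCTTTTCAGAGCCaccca
HIST2H2AA3: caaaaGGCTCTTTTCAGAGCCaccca
HIST1H2BK: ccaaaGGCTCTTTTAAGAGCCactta
HIST2H3C: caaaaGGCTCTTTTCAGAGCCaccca
HIST2H4B: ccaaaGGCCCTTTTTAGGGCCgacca

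Each of the 5 genes has an annotated transcript that ends 5 bases behind the stem-loop, and HIST2H4B also has annotated transcripts that end 240 and 1314 bases behind it. All 65 histone names of the HIST1 to HIST4 families that were matched to protein-coding genes held the pattern in an annotated transcript. The form in HIST1H1E was the most frequent, in 38 of the 65, while that of HIST1H2BK was the form of 8 and that of HIST2H4B the form of 4.

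The second sequence is that of U7 RNA, whose start pairs with the histone pre-mRNA behind the cleavage site. Its gene RNU7-1 lies on the plus strand at chr12:6943816-6943878 of GRCh38. The capitals mark its Sm site at bases 21 to 31, on which LSM10 and LSM11 take the places that SNRPD1 and SNRPD2 hold on the spliceosomal RNAs.

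U7 RNA: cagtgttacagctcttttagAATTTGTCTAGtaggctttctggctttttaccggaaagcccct

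U7 RNA had 0 counts in all 4 libraries, which allows up to 3 counts in each, or 0.0575 CPM in the shallowest. This CPM is over the counts of all gene names, whereas the other CPM values are over the genes tested. The level of U7 RNA could therefore not be compared in these libraries. Whether their preparation kept an RNA of 63 bases was not tested. The limit of 3 counts covers counting error only, whereas the 95% intervals given below come from the edgeR fit. Those intervals include the spread between libraries.

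The 10 genes were then compared between both groups of libraries. Of the 10, 6 were higher under the PRMT5 KD label, by 1.42 to 2.51 fold. In descending order they were SLBP, LSM11, ZNF473, CASP8AP2, NPAT and LSM10. None of the 10 was called lower. CPSF3 and CPSF2, the nuclease of mRNA cleavage and its partner, stood at 1.04 and 1.00 times the control level and were not called. ERI1 and SYMPK passed by FDR, with changes too small to be called. Which genes were called depended on the fit. With splines for exon length and GC content, LSM10 lost its call at a log2 fold change of 0.28. SYMPK gained a call there, at 0.79. To be called, a gene needed both an FDR below 0.05 and a log2 fold change of 0.5 or more in size. By that rule 45.5% of the 11897 genes tested were called, 21.2% higher and 24.3% lower, against 6 and 0 of the 10. On total counts without TMM scaling 61.5% of all calls were higher, against 46.5% here. The median log2 fold change was 0.54 over the 10 genes and -0.0074 over all genes tested. CPM is the count scaled to library size (per 1e+06 counts, with TMM factors), and SDs are over the 2 libraries of a group. With 2 libraries against 2, a permutation test cannot give a p below 0.333, so each FDR comes from the edgeR model over all genes.

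**Figure D1:**
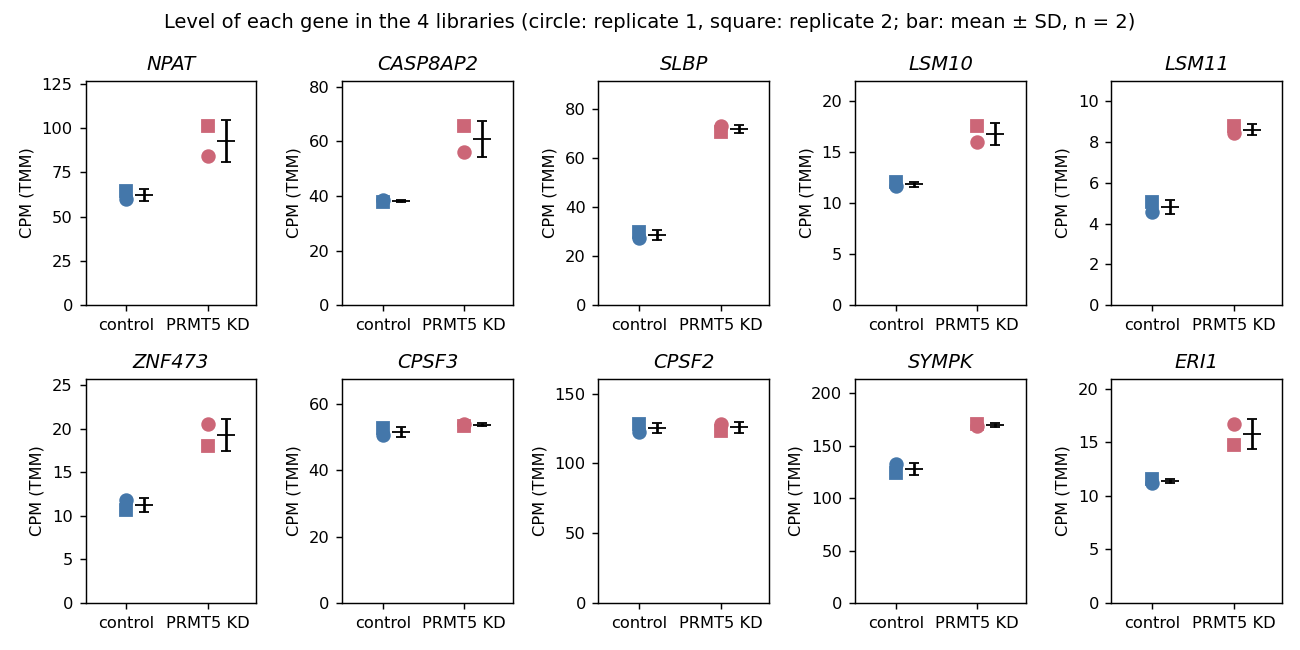
CPM (TMM-scaled, linear axis from 0) of the 10 genes in the 2 control and 2 PRMT5 KD libraries, with the mean ± SD of each group beside the points. SLBP lies at 27.3 and 29.9 CPM in control against 73.0 and 70.5 CPM in PRMT5 KD-labelled libraries, while the 2 groups overlap for CPSF2.

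NPAT is a large scaffold protein that cyclin E-CDK2 phosphorylates when cells enter S phase, after which it activates the histone genes. The gene lies at chr11:108157215-108222638 of GRCh38 on the minus strand (GENCODE release 44). It had 59.8 and 64.5 CPM in control against 84.2 and 101 CPM in PRMT5 KD-labelled libraries. The groups did not overlap, and the PRMT5 KD libraries lay further from each other than the controls did. The means were 62.1 ± 3.29 and 92.7 ± 12.1 CPM (SD, n = 2 each), and the log2 difference in edgeR was 0.58 ± 0.13 (standard error; FDR = 0.0109). Without PRMT5 KD replicate 2, the higher of the pair, it was 0.45 and no longer called.

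CASP8AP2, also known as FLASH, binds LSM11 and brings the cleavage complex to the histone locus body. The gene lies at chr6:89829894-89874436 of GRCh38 on the plus strand (GENCODE release 44). It had 38.4 and 37.8 CPM in control against 56.2 and 65.6 CPM in PRMT5 KD-labelled libraries. Its control libraries were nearly equal, and both PRMT5 KD libraries lay above them. In edgeR this was a log2 difference of 0.68 ± 0.12 (standard error; FDR = 0.00493). The ratio of NPAT to CASP8AP2, per kilobase of exon (RPKM), was 1.76 ± 0.114 in control and 1.65 ± 0.0338 under the PRMT5 KD label. The difference of -0.098 on the log2 scale had a standard error of 0.069 over libraries.

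SLBP, the stem-loop binding protein, stays with the histone mRNA from cleavage to translation. The gene lies at chr4:1692731-1712344 of GRCh38 on the minus strand (GENCODE release 44). In cycling cells its protein accumulates before S phase and is degraded afterwards. The SLBP transcript had 27.3 and 29.9 CPM in control against 73.0 and 70.5 CPM in PRMT5 KD-labelled libraries. The gap between the groups was much wider than the gap within either. The means were 28.6 ± 1.86 and 71.8 ± 1.79 CPM (SD, n = 2 each), a 2.51-fold difference with a 95% interval from 2.07 to 3.03. The log2 fold change of 1.33 (standard error 0.11, FDR = 0.000458) was the largest of the 10, and 94.4% of all genes tested had a lower one. It was called under every setting tried, between 1.07 with splines on exon length and GC and 1.504 on total counts.

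LSM10 and LSM11 replace a pair of Sm proteins in the ring around U7 RNA, and the long tail of LSM11 recruits CASP8AP2. LSM10 lies at chr1:36391238-36397908 on the minus strand and LSM11 at chr5:157743712-157760709 on the plus strand. LSM11 was the least abundant of the 10 genes, with 180 and 252 counts in control against 401 and 420 in PRMT5 KD-labelled libraries. In CPM these were 4.55 and 5.04 against 8.42 and 8.78, and the groups stood well apart. The log2 fold change of LSM11 was 0.84 (standard error 0.18, FDR = 0.00810). LSM10 had 11.7 and 12.05 CPM in control against 16.05 and 17.6 CPM in PRMT5 KD-labelled libraries, again without overlap. Its log2 fold change of 0.50 (standard error 0.14, FDR = 0.0220) lay at the threshold. With the length and GC splines it was 0.28 and was not called. Without PRMT5 KD replicate 2 it was 0.44 and likewise not called. The ratio of LSM11 to LSM10 in RPKM was 0.0890 and 0.0958 in control against 0.120 and 0.114 in PRMT5 KD-labelled libraries, without overlap.

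ZNF473, a zinc finger protein also known as ZFP100, contacts both LSM11 and the complex of SLBP with the stem-loop. The gene lies at chr19:50025714-50053414 of GRCh38 on the plus strand (GENCODE release 44). It had 11.8 and 10.7 CPM in control against 20.6 and 18.04 CPM in PRMT5 KD-labelled libraries. The lower PRMT5 KD library still lay above both controls. In edgeR this was a log2 difference of 0.78 ± 0.15 (standard error; FDR = 0.00558). Of its exon bases, 3.23% are shared with VRK3 on the opposite strand, and whether the counting used strand is not given in the sources used here. Its counts were whole numbers to within 0.001 in all 4 libraries, as were those of the other 9 genes.

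The cleavage complex is common to histone pre-mRNAs and to mRNAs with a poly(A) tail. CPSF3 is the endonuclease, CPSF2 its inactive homolog, and SYMPK the scaffold that holds them. CPSF3 lies at chr2:9423651-9473101 and CPSF2 at chr14:92121969-92172145, both on the plus strand. CPSF3 had 50.6 and 52.7 CPM in control against 54.1 and 53.5 CPM in PRMT5 KD-labelled libraries. Its libraries did not overlap, but the gap was small, with a log2 fold change of 0.06 and a 95% interval from -0.20 to 0.31 (FDR = 0.660). CPSF2 had 123 and 128 CPM in control against 129 and 123 CPM in PRMT5 KD-labelled libraries. These values overlapped, and the log2 fold change was 0.0049 with a 95% interval from -0.25 to 0.26 (FDR = 0.974). With the length and GC splines CPSF2 stood at 0.31 (FDR = 0.0440) and was still not called. In the edgeR fit without splines, an increase as large as that of SLBP lies outside both intervals. The ratio of CPSF2 to CPSF3 in RPKM was 0.660 ± 0.000691 in control and 0.636 ± 0.0143 under the PRMT5 KD label, without overlap (difference -0.055 on the log2 scale, standard error 0.023 over libraries). The direction of this difference depended on the correction. With the length and GC splines, CPSF2 had the higher log2 fold change, 0.31 against -0.035 for CPSF3.

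SYMPK, at chr19:45815410-45863194 on the minus strand, differed from both. It had 132 and 124 CPM in control against 169 and 171 CPM in PRMT5 KD-labelled libraries, and the groups stood apart. Its log2 fold change of 0.41 (standard error 0.11, FDR = 0.0189) was under the fold change threshold. SYMPK has 10532 bases of annotated exon, and with the length and GC splines its log2 fold change was 0.79 and called. In RPKM the ratio of SYMPK to CPSF3 was 0.914 and 0.824 in control against 1.09 and 1.12 in PRMT5 KD-labelled libraries.

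ERI1 is an exonuclease that binds the same stem-loop as SLBP and removes bases from its end. The gene lies at chr8:9002147-9116746 of GRCh38 on the plus strand (GENCODE release 44). It had 11.2 and 11.6 CPM in control against 16.8 and 14.8 CPM in PRMT5 KD-labelled libraries. Both PRMT5 KD libraries were higher than both controls. The log2 fold change of 0.47 (standard error 0.14, FDR = 0.0316) missed the fold change threshold, and it passed with 4 of the 11 other tests, scalings, filters and corrections. The ratio of SLBP to ERI1 in RPKM was 8.50 ± 0.389 in control and 15.4 ± 0.971 under the PRMT5 KD label.

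**Figure D2:**
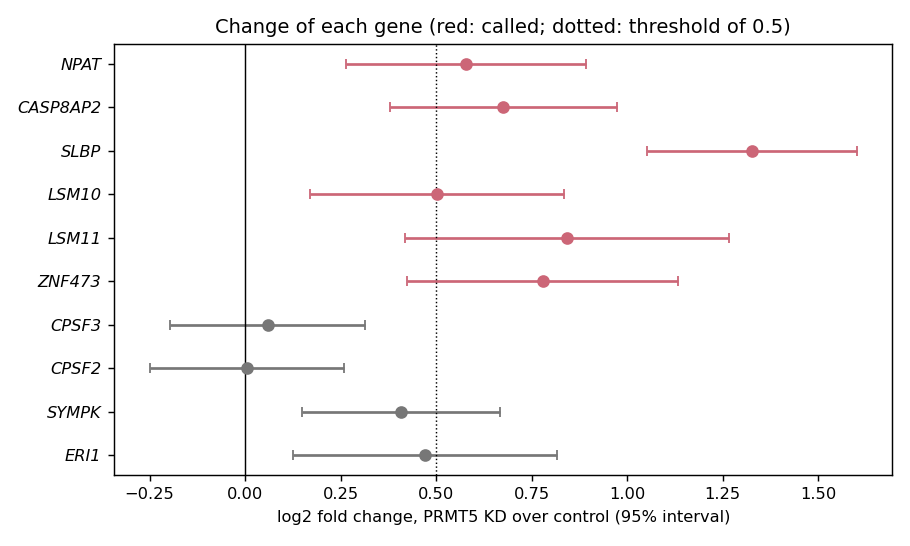
Log2 fold change of the 10 genes, PRMT5 KD over control, with the 95% interval of the edgeR fit; red points were called and the dotted line is the threshold of 0.5. The interval of SLBP, from 1.05 to 1.601, overlaps those of LSM11 and ZNF473 and none of the others.

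Beyond single genes, 9 of the 10 had both PRMT5 KD libraries above both controls, the exception being CPSF2. Over all genes tested, 39.9% did so, and 40.6% had both below. By the FDR alone 8 of the 10 passed, all of them higher, against 54.4% of all genes in either direction and 26.3% in the higher one. The calls on most of the 10 rested on having both control libraries. Without control replicate 2 only SLBP was called, and without control replicate 1 SLBP, CASP8AP2 and ZNF473 were. All genes called fell as well, from 5418 to 3108 and 3865. Over the 4 fits that left out 1 library, the log2 fold change of NPAT ranged from 0.45 to 0.74, that of CASP8AP2 from 0.57 to 0.82 and that of LSM10 from 0.44 to 0.60. The ranges were 0.77 to 0.92 for LSM11, 0.71 to 0.88 for ZNF473 and 1.26 to 1.39 for SLBP.

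Levels were compared between genes per kilobase of annotated exon. In control, SLBP had 15.2 ± 0.988 RPKM and CPSF3 14.01 ± 0.391 RPKM (SD, n = 2 each), which lay within their SDs of each other. SYMPK followed at 12.2, CPSF2 at 9.25, NPAT at 8.25 and LSM10 at 7.89 RPKM, of which NPAT and LSM10 did not differ beyond their spread. CASP8AP2 had 4.68 RPKM, ERI1 1.79, ZNF473 1.63 and LSM11 0.730. Under the PRMT5 KD label the order was different. SLBP stood alone at 38.1 ± 0.952 RPKM, more than the 16.1 ± 0.163 of SYMPK and the 14.6 ± 0.113 of CPSF3. NPAT (12.3 ± 1.604) and LSM10 (11.2 ± 0.731), now above CPSF2 (9.28 ± 0.281), again did not differ beyond their spread. CASP8AP2 followed at 7.47 ± 0.821 RPKM, and ZNF473 (2.80 ± 0.263) and ERI1 (2.47 ± 0.217) lay within their SDs of each other. LSM11 was still last, at 1.31 ± 0.0385 RPKM. The order depended on the length used. By the longest annotated transcript in place of all exons, SYMPK led in control at 19.6 RPKM, and LSM10 (11.8) and NPAT (10.2) already stood above CPSF2 (9.65) there. SLBP led under the PRMT5 KD label by that length too, at 39.7 RPKM.

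The mRNAs on which these proteins act are the base for a further comparison. Of 59 histone genes tested, all with an annotated stem-loop, 57 were called higher and 1 lower. Over all genes tested the shares were 21.2% and 24.3%. The pattern of the histone genes was already known when the 10 genes were chosen. Histone genes are near-identical copies, so single values are uncertain, and their sum was used. The summed histone level was 602 and 556 CPM in control against 2714 and 2867 CPM in PRMT5 KD-labelled libraries. SLBP rose less than this sum. There were 22.1 and 18.6 histone CPM per SLBP CPM in control against 37.2 and 40.7 in PRMT5 KD-labelled libraries. The groups did not overlap, and the mean difference was 0.94 on the log2 scale (standard error 0.14 over libraries). The labels name total RNA, and whether poly(A) selection or rRNA depletion was used is not given in the sources used here.

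NPAT shares its promoter with ATM, the DNA damage kinase gene on the opposite strand. Their RefSeq start sites on GRCh38.p14 lie 429 bases apart, at 108222638 and 108223067 of chromosome 11. The promoter of NPAT is shown because the 2 genes moved in opposite directions. The window runs from 250 bases before the start site to 50 bases from it, chr11:108222589-108222888 on the minus strand, and the capitals mark the 72 bases that it shares with the window of ATM.

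NPAT: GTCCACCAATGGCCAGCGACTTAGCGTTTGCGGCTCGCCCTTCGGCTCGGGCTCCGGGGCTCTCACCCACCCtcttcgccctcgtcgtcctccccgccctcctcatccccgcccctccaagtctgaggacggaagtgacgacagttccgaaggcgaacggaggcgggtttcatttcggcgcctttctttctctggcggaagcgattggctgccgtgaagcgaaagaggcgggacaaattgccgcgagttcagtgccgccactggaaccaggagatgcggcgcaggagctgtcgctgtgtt

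ATM had 394 and 428 CPM in control against 192 and 186 CPM in PRMT5 KD-labelled libraries, where NPAT was higher. In edgeR this was a log2 difference of -1.12 ± 0.12 (standard error; FDR = 0.000796). The ratio of ATM to NPAT in RPKM went from 1.27 and 1.28 in control to 0.439 and 0.354. ATM has 39184 bases of annotated exon against 7530 for NPAT, and the size of the ratio depends on the length used. By the longest annotated transcript ATM had 31.3 RPKM and NPAT 10.2 in control, against 14.4 and 15.2 under the PRMT5 KD label. With the length and GC splines, ATM stood at -0.59 and NPAT at 0.66, both still called. No annotated exon of NPAT overlaps another gene.

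**Figure D3:**
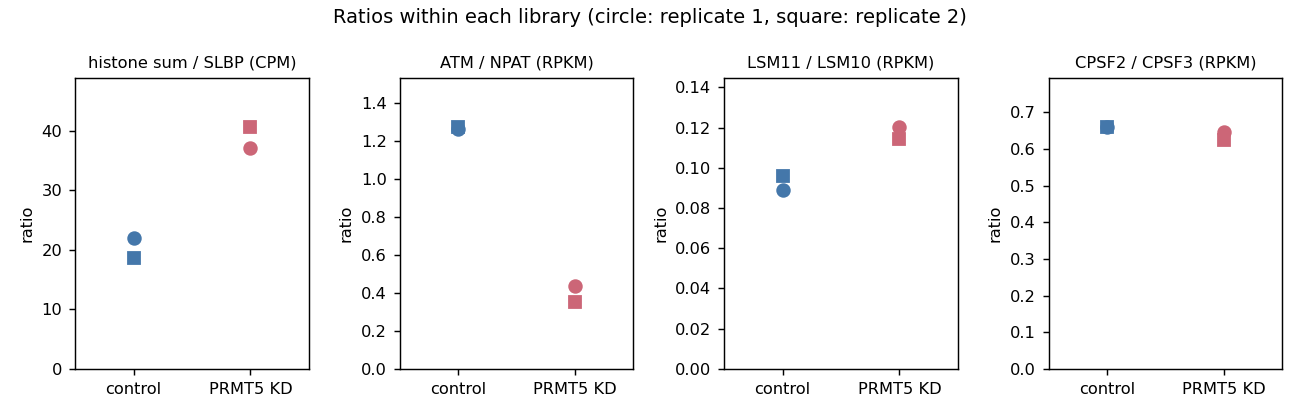
Ratios within each of the 4 libraries, without the length and GC splines, on linear axes from 0. The summed histone CPM per SLBP CPM lies at 18.6 to 22.1 in control and 37.2 to 40.7 under the PRMT5 KD label, the ratio of ATM to NPAT falls from 1.27 and 1.28 to 0.439 and 0.354, LSM11 to LSM10 is higher under the PRMT5 KD label, and CPSF2 to CPSF3 lies at 0.660 and 0.661 in control and, slightly lower, at 0.646 and 0.626 under the PRMT5 KD label.

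Promoter windows of the same length were found in RefSeq for 8 of the 10 genes, LSM10, LSM11, SLBP, NPAT, CASP8AP2, CPSF3, CPSF2 and SYMPK. They were searched on both strands for 4 short motifs. The letters TTCCCGC, a core that E2F factors bind, were held by 2 of the 8, CASP8AP2 and CPSF3. CASP8AP2 was called higher and CPSF3 was not. Of all 14294 windows of genes tested, 9.63% held the same letters. Those windows belong to 9770 genes, so a gene can have several, whereas the 8 genes here have 8 windows. The GC box GGGCGG was in 5 of the 8 windows and in 65.99% of all windows. The CCAAT box (CCAAT) was in 4 of the 8 against 35.2%, and the letters TTTGAA of the cell cycle homology region only in LSM11 against 10.6%. No 2 matches overlapped. A match of letters is a description and not a binding site, and variants of the letters were not searched. The 3 windows below are those of SLBP, which changed most, with its GC boxes in capitals, and of CASP8AP2 and CPSF3, with the E2F letters in capitals. They lie at chr4:1712270-1712569 (minus strand), chr6:89829630-89829929 (plus strand) and chr2:9423404-9423703 (plus strand) of GRCh38.p14.

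SLBP: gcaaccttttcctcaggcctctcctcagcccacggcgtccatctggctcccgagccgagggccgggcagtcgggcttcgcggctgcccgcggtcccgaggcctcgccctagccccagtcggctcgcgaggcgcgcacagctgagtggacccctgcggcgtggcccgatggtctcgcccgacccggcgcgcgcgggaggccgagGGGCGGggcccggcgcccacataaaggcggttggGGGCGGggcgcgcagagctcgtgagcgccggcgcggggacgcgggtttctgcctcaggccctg
CASP8AP2: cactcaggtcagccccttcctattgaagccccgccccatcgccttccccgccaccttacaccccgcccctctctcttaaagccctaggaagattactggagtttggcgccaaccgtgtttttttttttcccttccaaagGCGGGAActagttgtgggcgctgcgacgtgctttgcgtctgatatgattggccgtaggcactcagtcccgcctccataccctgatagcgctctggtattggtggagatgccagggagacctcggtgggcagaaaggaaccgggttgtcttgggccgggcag
CPSF3: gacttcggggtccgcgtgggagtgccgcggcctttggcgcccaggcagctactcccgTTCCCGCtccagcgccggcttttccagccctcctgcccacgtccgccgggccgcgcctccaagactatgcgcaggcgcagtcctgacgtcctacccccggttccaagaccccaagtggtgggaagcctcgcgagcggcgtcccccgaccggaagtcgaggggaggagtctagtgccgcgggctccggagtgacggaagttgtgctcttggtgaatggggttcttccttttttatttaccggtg

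In SLBP the GC boxes start 47 and 13 bases before the start site. In CASP8AP2 the E2F letters start 111 bases before it on the other strand, and in CPSF3 193 bases before it on the gene's strand. Of the windows shown, that of SLBP was the richest in G and C, with 76.7%, against 58.3% for CASP8AP2.

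Fold changes in these libraries fell with exon length, and the 10 genes were read against genes of their own length. Genes tested were divided into 10 groups by exon length, whose median log2 fold changes went from 0.24 in the shortest to -0.29 in the longest. SLBP and LSM10 belong to the shortest group and lay 1.08 and 0.26 above its median. NPAT and CASP8AP2, with 7530 and 8147 bases of exon, lay 0.69 and 0.79 above the median of their group. LSM11, ZNF473 and ERI1 lay 0.88, 0.82 and 0.51 above theirs. SYMPK was 0.64 and CPSF2 0.30 above the long genes around them, and CPSF3 was 0.070 below. CPSF3 was thus the only one of the 10 below the median of its length group.

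Genes related to the 10, termed partner genes here, were counted from 8 lists of 92 genes, all of which were tested. The lists are broad and include factors that cut other RNAs, histone chaperones and general cell cycle genes. Of the 92 genes, 40 were called higher and 5 lower, against the 21.2% and 24.3% of all genes. Their median log2 fold change was 0.41. The 5 Sm proteins that complete the U7 ring and also serve splicing were all called higher. SNRPB led with 73.7 and 201 CPM on average (log2 fold change 1.45, FDR = 0.000513), followed by SNRPF at 1.11. Of 9 histone promoter factors and partners, 4 were called higher, and they were regulators of the cell cycle or of nuclear bodies. CCNE2 and CDK2, a cyclin and the kinase that phosphorylate NPAT, had log2 fold changes of 3.19 and 1.93. The 5 not called, HINFP, POU2F1, YY1, GON4L and CRAMP1, had values from -0.11 to 0.24. Of these, HINFP and POU2F1 bind the promoters of H4 and H2B genes.

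Among 18 cleavage and polyadenylation factors, 5 were called higher and none lower. Over all genes tested, 21.2% were called higher and 24.3% lower. CSTF2, which is also found in the histone cleavage complex, led with 16.04 and 36.3 CPM on average (log2 fold change 1.18, FDR = 0.000835), and its paralog CSTF2T followed at 1.05. Of 14 subunits of Integrator, the complex that cuts small nuclear RNAs, 2 were called higher and 2 lower. INTS7 and INTS5 were higher, at 0.66 and 0.58, and INTS3 and INTS6 lower, at -0.91 and -0.66. Its paralogs of the histone nuclease pair, INTS11 and INTS9, had values of 0.17 and 0.26 and were not called, as was the case for CPSF3 and CPSF2. Of 9 cap-binding, NELF and related factors, CDK9 was called lower, at -0.51, and none was called higher.

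Of 18 factors of histone mRNA translation and decay, 8 were called higher and 2 lower, against 21.2% and 24.3% of all genes tested. The 2 lower ones, CTIF at -0.75 and MIF4GD at -0.66, both act in the translation of histone mRNA at the side of SLBP or the cap. DDX19B of the same list went the other way, at 0.42 (FDR = 0.0413), and was not called. LSM6 and LSM3, of the LSM ring that binds the tailed end of decaying histone mRNA, led the higher ones with 1.09 and 1.05. Among 8 factors of SLBP protein turnover, 6 were called higher, with CCNA2 at 2.12 and CDK1 at 1.95 in the lead, both general cell cycle genes. Of 11 histone chaperones, 10 were called higher. ASF1B went from 8.96 to 63.7 CPM on average, a log2 fold change of 2.83 (FDR = 0.000195), and CHAF1A followed at 2.17.

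**Figure D4:**
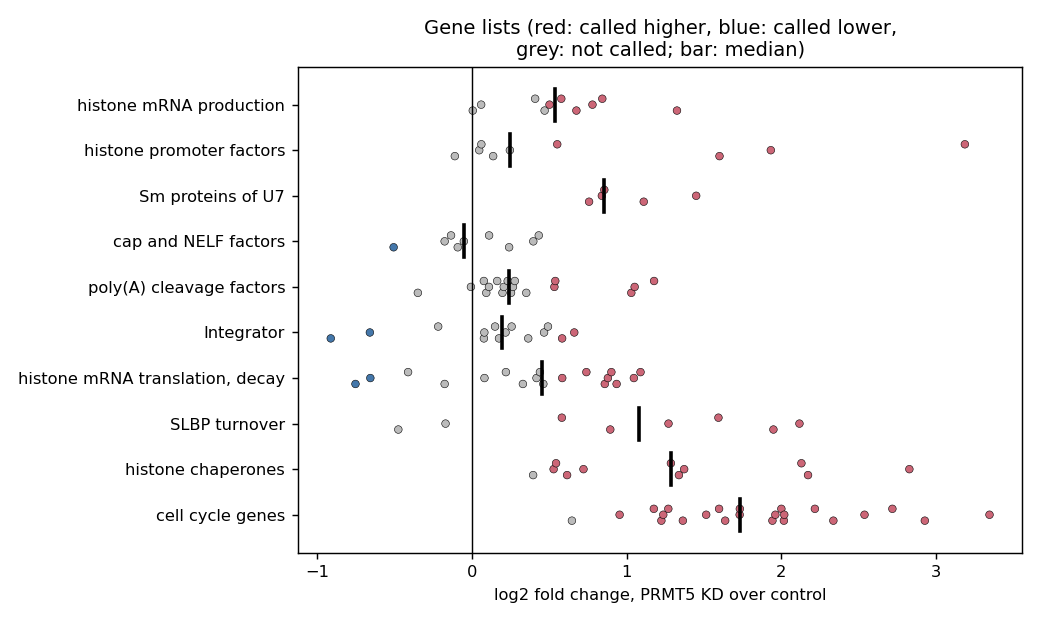
Log2 fold change, PRMT5 KD over control, of every gene tested in the 10-gene set (top row), in the 8 lists of partner genes and in the cell cycle list; red was called higher, blue lower, grey not called, and the bar is the median. The 5 Sm proteins of U7 all lie to the right of 0.5, and the cap and NELF factors have a median of -0.053.

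Cell cycle genes moved with these results. Of 23 S phase and G2/M genes, which include none of the 10, 22 were called higher and the median log2 fold change was 1.73. Over all genes tested, 21.2% were called higher and the median was -0.0074. CENPF, at 0.65 (FDR = 0.0501), was not called. The 23 summed to 58228 to 63006 counts in control and 197063 to 202362 under the PRMT5 KD label. Their log2 fold changes ran from 0.65 to 3.35. SLBP, LSM11, ZNF473 and CASP8AP2 lay within that range but below its median, and NPAT and LSM10 lay below the range. The part of the cell cycle genes in the change of the 10 genes was not tested.

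**Figure D5:**
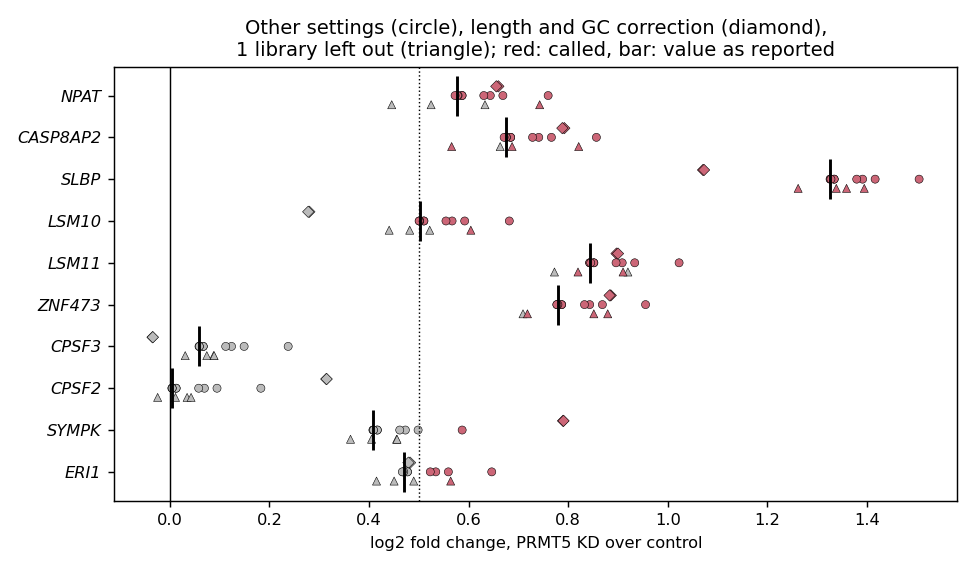
Log2 fold change of each of the 10 genes as reported (bar), under other tests, scalings and filters (circles), with the length and GC splines (diamonds) and with 1 library left out (triangles); red marks a call and the dotted line is the threshold of 0.5. SLBP is called in every fit shown, whereas LSM10 lies between 0.28 and 0.68 and loses its call in several.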

How the data were processed

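Total RNA of 2 control and 2 PRMT5 KD libraries was sequenced after a directional library preparation. The authors deposited 1 table of estimated counts per library, with RefSeq-style gene names and values that need not be whole. The submitters' processing notes name FastQC, Trim Galore, STAR, Salmon, DESeq2 and GRCh38 without roles, while the study's methods describe STAR and FeatureCounts for RNA-seq. Which tool gave the estimated counts, and whether strand was used, is not given in the sources used here.

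Estimated counts were summed by name and rounded to whole numbers. Of 29744 entries per table, 28 had been turned into dates and held 0.150% to 0.161% of the counts. They were left out because their genes could not be named. Names were matched to GENCODE release 44 by symbol (21877), RefSeq gene number (1147) or synonym (1533), which gave 18923 protein-coding genes.

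The 11897 protein-coding genes that reached 0.5 RPKM in the 2 libraries of control or of PRMT5 KD were analysed with the edgeR quasi-likelihood test (edgeR 4.0.16, R 4.3.3, robust fit, TMM factors) and Benjamini-Hochberg adjustment (FDR). Calls required an FDR below 0.05 and a log2 fold change of 0.5 or more in size. RPKM used the union of annotated exons. The procedure was tested on simulated data, where the share of unchanged genes among its calls exceeded the FDR threshold. Far fewer genes changed in the simulation than were called here, so the share of false calls here is not known from it. Results were recomputed with DESeq2 1.42.0, 3 scalings, 3 filters, a fit that was not robust, a replicate block, splines for exon length and GC content, and leaving out each library. Libraries of 52185289 to 65964558 counts gave the 10 genes 180 to 8187 counts each.

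The 10 genes and all gene lists were chosen with earlier results of these data known. For each list of partner genes, up to 2 called genes per direction were named by size of change. ATM, INTS9, INTS11, DDX19B, U7 RNA and PRMT5 were named in addition. Lists of 5 or fewer members of a kind were named in full after their values were seen. Sequences were read from GENCODE transcripts and RefSeq promoter windows on GRCh38.p14. No libraries other than these 4 were analysed here.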

Additional observations from a re-analysis of the deposited data

How the results depend on the processing

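SLBP was called under all 16 alternatives, from 1.07 to 1.504. Leaving out 1 library at a time gave 3108 to 5709 genes called (5418 with all 4 libraries) and 1 to 6 of the 10 genes (6 with all). The lowest values came without control replicate 2, when NPAT, CASP8AP2, LSM10, LSM11 and ZNF473 had FDRs from 0.0588 to 0.118. For partner genes these fits gave 31 to 53 (45 with all) and for cell cycle genes 18 to 23 (22 with all). CPSF3 changed sign with the length and GC correction (-0.035, and -0.034 with the replicate block), and CPSF2 without control replicate 1 (-0.024, against up to 0.043 without PRMT5 KD replicate 2). Neither was called in any fit. Total counts without TMM scaling moved the median of all genes to 0.17, and 8 of the 10 genes were called, with ERI1 at 0.65 and SYMPK at 0.59. ERI1 was also called under the 3 other filters, at 0.52 to 0.56.

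The group labels share replicate numbers, and deviations of same-numbered libraries correlated at -0.10 over 11897 genes. From 2 libraries a group, this correlation cannot show whether same-numbered libraries were prepared together. The fit with a replicate block called 5185 genes and 6 of the 10, and ERI1 no longer passed by FDR (0.0598). The crossed pairing, added after the data were seen, called 5486 genes and 5 of the 10. With 2 libraries a group, calls near the threshold, such as LSM10, rest on single libraries, and depth limits LSM11 most, at 180 to 420 counts.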
